A study of Mus musculus with 2 samples.

Results

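The 10 genes described here, Csf1r, Lyz2, Cd68, Fcer1g, Tyrobp, C1qa, C1qb, C1qc, Mrc1 and Aif1, are genes that tissue macrophages express, and they were taken by name from the probe annotation of the arrays. All 10 passed the filter on dim probes, among 20160 genes tested in all, and were read by 13 probes, of which 12 were kept. The tissue was the mouse ureter (strain NMRI) at stage E14.5, taken by mechanical dissection. A conditional knockout labelled Pax-cre/+;Smad4(fl/fl), written Pax2-cre/+;Smad4(fl/fl) in the study's title, was compared with controls labelled Smad4(fl/?), in which the second Smad4 allele and the presence of the Cre transgene are not stated. The label (UE) and the Pax2-cre driver place the deletion in the ureteric epithelium, so macrophages are not the stated target. Each of 2 two-colour arrays paired 1 knockout with 1 control sample: in replicate 1, labelled female, Cy3 marked the knockout and Cy5 the control, and in replicate 2, labelled male, the dyes were the other way round. Sex and dye orientation therefore cannot be told apart, and the sources used here do not give the number of embryos in a sample. Whether the samples came from separate litters is not given either, so p-values cannot be read as covering the spread between litters. They rest on these 2 arrays, and limma takes most of a gene's variance from other genes (1 residual and 9.10 prior degrees of freedom).

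Macrophages enter fetal organs early, first from the yolk sac and later from the fetal liver, and clear dying cells while organs form. They depend on the receptor CSF1R and its ligands, and signal through small adaptors with an ITAM, a paired-tyrosine motif that recruits the kinase SYK. They are the main source of complement C1q, which tags dying cells for uptake, and carry scavenger receptors and lysosomal enzymes for digestion. In RNA from a whole organ, fewer cells of a type and less RNA per cell cannot be told apart.

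With 2 arrays, their number limits how precise any value can be. Over all genes tested, the log2 ratios of knockout over control were nearly uncorrelated between the arrays (Pearson r = 0.0167, Spearman rho = -0.082). The ratios thus reproduced poorly from one array to the other, which limits every value below. Between 66.6% and 69.2% of all probes were well above background in a channel. Smad4 itself read -0.58 on replicate 1 and -0.08 on replicate 2 as a log2 ratio of knockout over control (limma adjusted p = 1.00). The deleted part of Smad4 was not set against its probes, so this does not check the labels, and directions below follow the dyes in the labels. The authors' deposited table of signed folds runs the opposite way by those dyes, since its signed log2 correlated with knockout over control at -0.822 on replicate 1 and -0.739 on replicate 2. In it Lyz2 stands at -1.28 and -1.73. If the labelled dyes were exchanged, the sign of each ratio of knockout over control would turn, whereas differences in level between the arrays would not.

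The measurement of each gene rests on 60-base probes, each printed in 4 spots per array. The probes of Lyz2, which had the largest ratio, of C1qa and C1qb, which belong to one gene cluster, and of Tyrobp, whose coordinates span more than the probe's own length, show what was hybridised. They are given 5′ to 3′ from the array files, with coordinates of the design on mm9, and capitals mark the longest run shared with a probe of another gene on the array.
Lyz2 (chr10:116719175-116719234, minus strand): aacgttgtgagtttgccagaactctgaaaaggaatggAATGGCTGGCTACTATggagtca
C1qa (chr4:136452409-136452468, minus strand): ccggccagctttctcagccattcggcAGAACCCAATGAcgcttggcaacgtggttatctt
C1qb (chr4:136436578-136436637, minus strand): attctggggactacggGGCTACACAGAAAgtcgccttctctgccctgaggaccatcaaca
Tyrobp (chr7:31200651-31202378, plus strand): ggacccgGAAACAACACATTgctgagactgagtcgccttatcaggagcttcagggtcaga
The shared run was 16 bases for Lyz2, 12 for C1qa, 13 for C1qb and 13 for Tyrobp. The array's probe for the neighbouring paralogue Lyz1 shares 21 of 60 bases at best with the Lyz2 probe, aligned without gaps. Transcripts of the paralogues could still bind either probe, so Lyz1 and Lyz2 are treated as uncertain in their separation.

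None of the 10 genes differed between knockout and control by the test over all genes (limma, Benjamini-Hochberg adjustment over 20160 genes). Over all genes 61 passed an adjusted p of 0.05, which is 0.303%, with 0.208% higher in knockout and 0.0942% higher in control. Lyz2, 1 of the 10, had an unadjusted limma p under 0.05, as did 4.54% of all genes. The mean log2 ratio of knockout over control was above 0 for 9 of 10 members and for 48.4% of all genes. On both arrays 5 of 10 members were above 0 (21.7% of all genes), 0 of 10 were below 0 on both (24.6%), and 5 had opposite signs, as did 10817 of the 20160 genes. The median of the 10 mean log2 ratios was 0.11, from 0.13 on replicate 1 and 0.07 on replicate 2, beside a median of -0.0044 over all genes. No member reached a log2 ratio of 0.32 in the same direction on both arrays, as 0.858% of all genes did towards knockout and 0.556% towards control. The 95% intervals of 9 members lay within 1.5-fold either way, and the upper bound of Lyz2 was 1.61-fold. Limma takes most of the width of these intervals from other genes. Like the p-values, they cannot be read as covering the spread between litters.

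**Figure D1:**
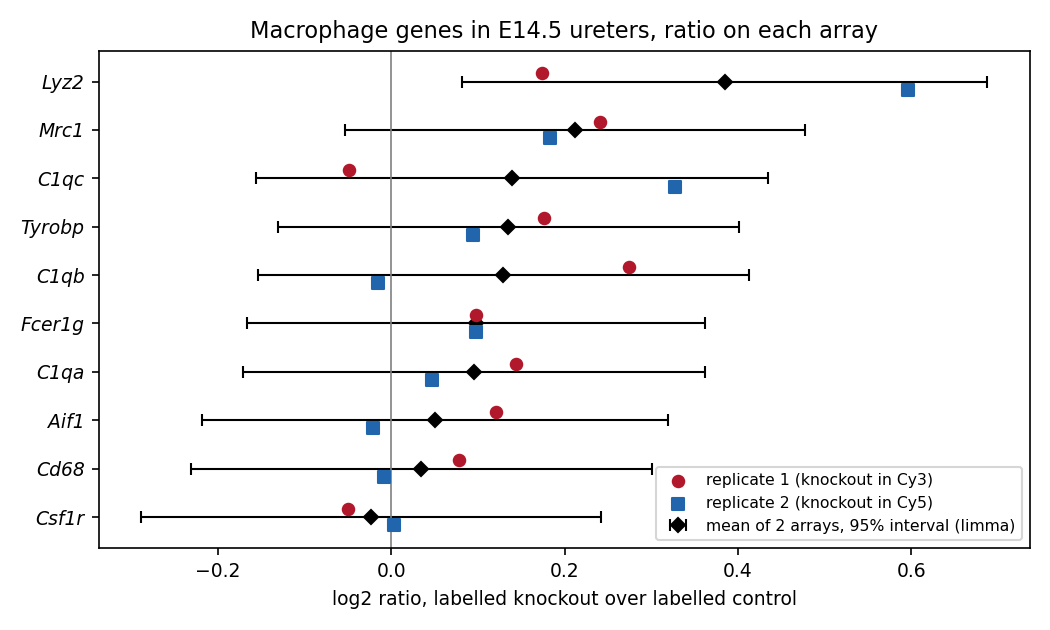
Log2 ratio of labelled knockout over labelled control (horizontal axis) for each macrophage gene, with circles for replicate 1, squares for replicate 2 and diamonds with 95% limma intervals for the mean of the 2 arrays. Means run from -0.0233 for Csf1r to 0.39 for Lyz2, and the intervals of 9 genes include 0.

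Csf1r encodes the receptor for the macrophage growth factors CSF1 and IL34. Its brightest probe, on mm9 chromosome 18 from 61290725 to 61290784, had a log2 intensity of 12.68 in knockout 1, 12.85 in knockout 2, 12.73 in control 1 and 12.85 in control 2. The samples of one genotype lay among those of the other. The ratio was 1.02-fold higher in control, with a log2 ratio of -0.0233 ± 0.0371 (SD, n = 2 arrays) and a 95% interval from -0.29 to 0.24. The other Csf1r probes, at 61278661 to 61278720 and at 61289398 to 61289758, had mean log2 ratios of -0.0251 and 0.06. The first of them read -0.19 on replicate 1 and 0.14 on replicate 2, and the second 0.17 and -0.0411, so the 3 probes gave different signs within 1 array.

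The genes of the CSF1 receptor's ligands and of related growth factor receptors did not pass either: 0 of 8 tested of 10 listed were called in either direction. Il34 read 0.13 ± 0.05 (SD, n = 2) and Csf2ra, a receptor chain for GM-CSF, -0.15 ± 0.15. Csf3r, the receptor for G-CSF, had the largest value of the list at -0.31 ± 0.31. Its probe was bright, with a mean log2 intensity of 16.24 in knockout and 16.56 in control. The Csf2ra probe was bright too, at 14.78 in knockout and 14.93 in control. Whether these probes read Csf3r and Csf2ra alone was not tested. Csf1, named here for its role as the second ligand and after its value was seen, read -0.08 on replicate 1 and -0.14 on replicate 2. The list's median was -0.10 (-0.13 on replicate 1 and -0.0392 on replicate 2). Among transcription factors of the lineage 0 of 11 tested passed, with a median of -0.0091 (-0.10 on replicate 1 and -0.0119 on replicate 2). Ikzf1 read -0.18 ± 0.16, Irf8, which is required for microglia, -0.15 ± 0.30, and Irf5, which acts below innate immune receptors, 0.15 ± 0.08. The probes of Spi1, which encodes the lineage factor PU.1, were not kept by the filter.

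Fcer1g and Tyrobp encode the ITAM adaptors that pair with Fc receptors and with TREM2. Fcer1g had a log2 intensity of 11.49 in knockout 1, 11.67 in knockout 2, 11.39 in control 1 and 11.57 in control 2. Its log2 ratio was 0.10 on each array (SD 6.21e-05, n = 2), the closest agreement among the 10, and limma's interval, whose variance comes mainly from other genes, ran from -0.17 to 0.36. Tyrobp stood at 11.32, 11.61, 11.15 and 11.52 in the same order. Knockout was the higher sample on each array, but the genotypes overlapped across arrays for both adaptors. The Tyrobp ratio was 1.10-fold higher in knockout, with a log2 ratio of 0.14 ± 0.06 and an interval from -0.13 to 0.40. A list of ITAM and related signalling genes was read beside them, and its receptors, some of them inhibitory, need not pair with these adaptors. Of 15 tested of 18 listed 0 passed, with a median of -0.0398 (-0.0131 on replicate 1 and 0.0527 on replicate 2). Pirb, an inhibitory receptor, read -0.26 ± 0.57, and Clec7a, which encodes the beta-glucan receptor dectin-1, 0.20 ± 0.06. The Pirb probe was bright as well (mean log2 intensity 17.18 in knockout and 17.44 in control), and whether it reads Pirb alone was not tested.

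C1qa, C1qb and C1qc encode the 3 chains of complement C1q. They lie next to each other on chromosome 4, with 0 other annotated genes between them in the RefSeq order for GRCm38.p6. C1qa had a log2 intensity of 9.29 in knockout 1, 9.62 in knockout 2, 9.15 in control 1 and 9.58 in control 2. C1qb stood at 9.26, 9.40, 8.99 and 9.42 in the same order. C1qc stood at 10.67, 11.22, 10.72 and 10.89. For C1qa and C1qb the lowest sample was control 1, whereas for C1qc one sample, knockout 2, stood above the other three.

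The log2 ratios of the chains were 0.10 ± 0.07 for C1qa, 0.13 ± 0.20 for C1qb and 0.14 ± 0.27 for C1qc (SD, n = 2), and in each case the 95% interval included 0. On replicate 1 they read 0.14, 0.27 and -0.0482, and on replicate 2 0.05, -0.0154 and 0.33. C1qb was thus the highest of the 3 on replicate 1 and the lowest on replicate 2, and C1qc the reverse. The arrays differed by -0.29 for C1qb and 0.38 for C1qc, as replicate 2 minus replicate 1.

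Of 12 tested complement genes and receptors (15 listed) 0 passed, with a median of 0.10 (0.06 on replicate 1 and 0.0159 on replicate 2). C3, the central component, read 0.09 on replicate 1 and 1.58 on replicate 2, with a limma adjusted p of 0.583. C4b read -0.14 and 1.66. Itgb2, the beta chain of the complement receptor CR3, read 0.0687 and 0.57. In each of these genes knockout 2 was the single high sample.

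Lyz2 encodes lysozyme, a bactericidal enzyme of myeloid cells. Its log2 intensity was 7.75 in knockout 1, 8.46 in knockout 2, 7.57 in control 1 and 7.87 in control 2. Knockout 2 was high, and knockout 1 lay between the controls. The value in control 1 was the lowest of any member in any sample, though all 4 spots were well above background in each sample. Lyz2 was 1.31-fold higher in knockout, with a log2 ratio of 0.39 ± 0.30 (SD, n = 2) and a 95% interval from 0.08 to 0.69. Its limma p was 0.0178 before adjustment and 0.817 after Benjamini-Hochberg adjustment. It read 0.17 on replicate 1 and 0.60 on replicate 2, and 0.57 on average with the scanner's processed signals. Lyz1 read 0.01 on replicate 1 and 1.16 on replicate 2, with a log2 intensity of 11.98 in knockout 2 and between 10.73 and 10.82 in the other samples. Both lysozyme genes were thus highest in the same sample.

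Cd68 encodes a lysosomal membrane glycoprotein that is widely used to mark macrophages. It had a log2 intensity of 11.23 in knockout 1, 11.16 in knockout 2, 11.15 in control 1 and 11.17 in control 2. The 4 samples were closer together than for any other member. Its log2 ratio was 0.0345 ± 0.0614, with an interval from -0.23 to 0.30. Another Cd68 probe, assigned to a different transcript, was not kept because it was well above background in 1 of 4 spots of knockout 2 and of control 1. Of 12 tested lysosomal genes that macrophages use 0 passed, with a median of 0.05 (0.0345 on replicate 1 and -0.0373 on replicate 2). The part of other cells of the ureter in the values of this list was not tested. Besides Lyz1, Ctss, the protease cathepsin S, read -0.09 on replicate 1 and 0.34 on replicate 2.

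Mrc1 encodes the mannose receptor CD206, a scavenger receptor of tissue macrophages that lymphatic and some other endothelial cells carry as well. Its log2 intensity was 10.94 in knockout 1, 11.04 in knockout 2, 10.69 in control 1 and 10.86 in control 2. It was the 1 of 10 members whose knockout samples both lay above both controls, as in 13.9% of all genes, while 0 of 10 had both controls on top, as in 15.3%. The log2 ratio was 0.21 ± 0.0412 (SD, n = 2), a 1.16-fold difference that did not pass (limma adjusted p = 1.00), with an interval from -0.0531 to 0.48. Among phagocytic receptors and ligands 0 of 10 tested passed, with a median of -0.0233 (0.0035 on replicate 1 and -0.0332 on replicate 2). Gas6, a bridging ligand of the receptors AXL and MERTK, read -0.45 ± 0.21 (limma adjusted p = 0.425), Marco 0.25 ± 0.33 and Msr1 0.10 ± 0.06. Endothelial genes had a median of -0.13 (-0.10 on replicate 1 and -0.16 on replicate 2), with 7 of 12 below 0 on both arrays and 0 of 12 above. Over all genes 24.6% were below 0 on both arrays and 21.7% above. Flt1 read -0.37 ± 0.09, Cdh5 -0.36 ± 0.25 and Flt4, a receptor of lymphatic endothelium, -0.17 ± 0.06, and none of the 12 passed. Prox1, which defines lymphatic endothelium, was not kept by the filter. The 12 tested were well above background in every sample, with summed linear intensities of 37837 and 32017 in the knockout samples and 41515 and 37861 in the controls. Their part in the Mrc1 value was not tested.

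Aif1 encodes IBA1, an actin-binding protein of macrophages and microglia. It had a log2 intensity of 11.14 in knockout 1, 11.28 in knockout 2, 11.02 in control 1 and 11.30 in control 2. Knockout was higher on replicate 1 and control on replicate 2. The log2 ratio was 0.05 ± 0.10, with an interval from -0.22 to 0.32.

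**Figure D2:**
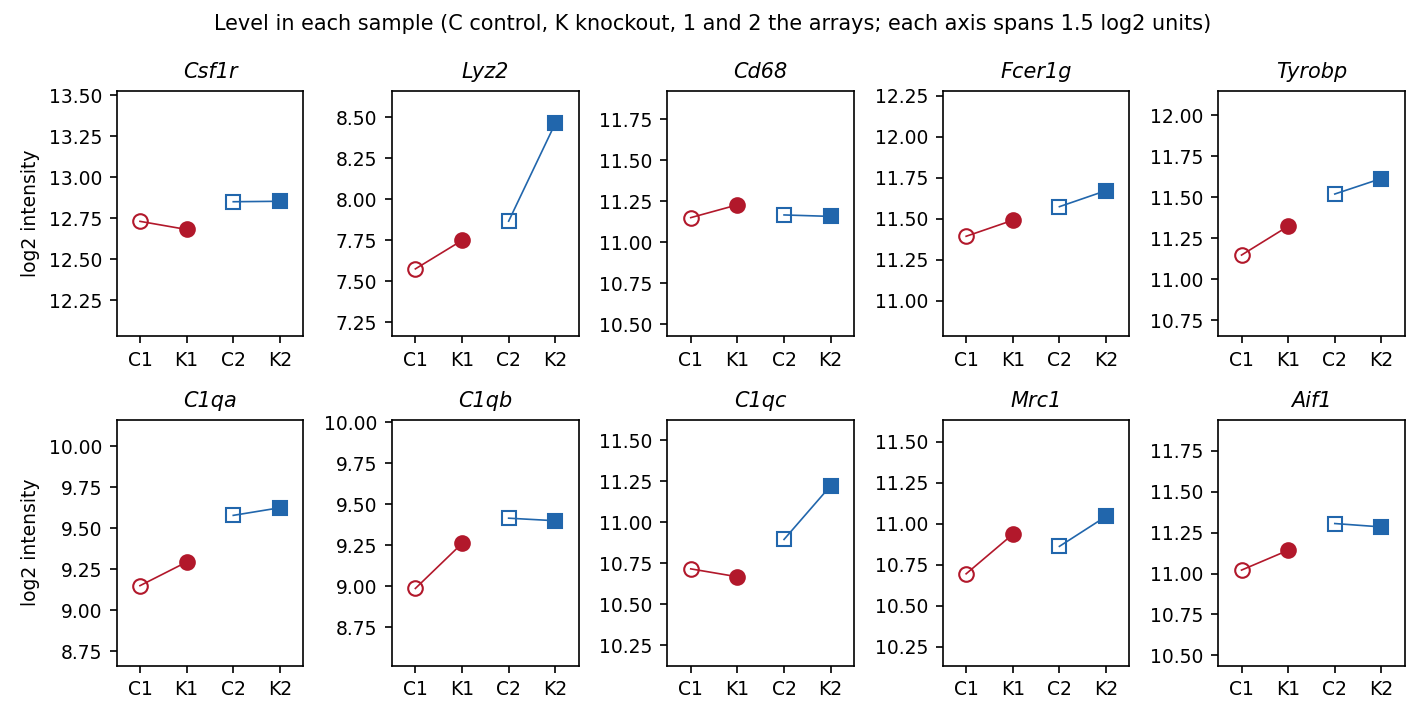
Log2 intensity (vertical axes, each 1.5 units tall, on separate levels since probes are not comparable with each other) of the macrophage genes in control (open) and knockout (filled) samples of replicate 1 (circles) and replicate 2 (squares). Both samples of replicate 2 lie above the sample of the same genotype on replicate 1 for 9 genes, and knockout 2 stands out for Lyz2 and C1qc.

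Of 18 further genes of tissue macrophages that were tested, 0 passed, with a median of 0.0107 (-0.028 on replicate 1 and 0.0525 on replicate 2). Pf4, a chemokine of platelets and of fetal macrophages, read 0.40 on replicate 1 and 0.47 on replicate 2 and was the 1 gene of this list at or above 0.32 on both arrays (limma adjusted p = 0.382). Cd14, the co-receptor for endotoxin, read 0.28 and 0.22. Adgre1, which encodes a defining surface marker of mouse macrophages, read -0.0218 on replicate 1 and 0.54 on replicate 2, and knockout 2 was again the high sample. Genes shared by most white blood cells had a median of 0.0153 (0.035 on replicate 1 and 0.0241 on replicate 2), with 0 of 14 passing, Arhgdib at 0.22 ± 0.29, Ptpn6 at 0.15 ± 0.05 and Lsp1 at -0.14 ± 0.03. Over the 8 macrophage and white blood cell lists together, which hold 100 tested genes beside the 10, the median was 0.0011. Of these 100, 23 were above 0 on both arrays and 23 below, beside 21.7% and 24.6% of all genes. By limma 0 of the 100 passed after adjustment (0.303% of all genes), and 7 had an unadjusted p under 0.05 (4.54% of all genes).

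**Figure D3:**
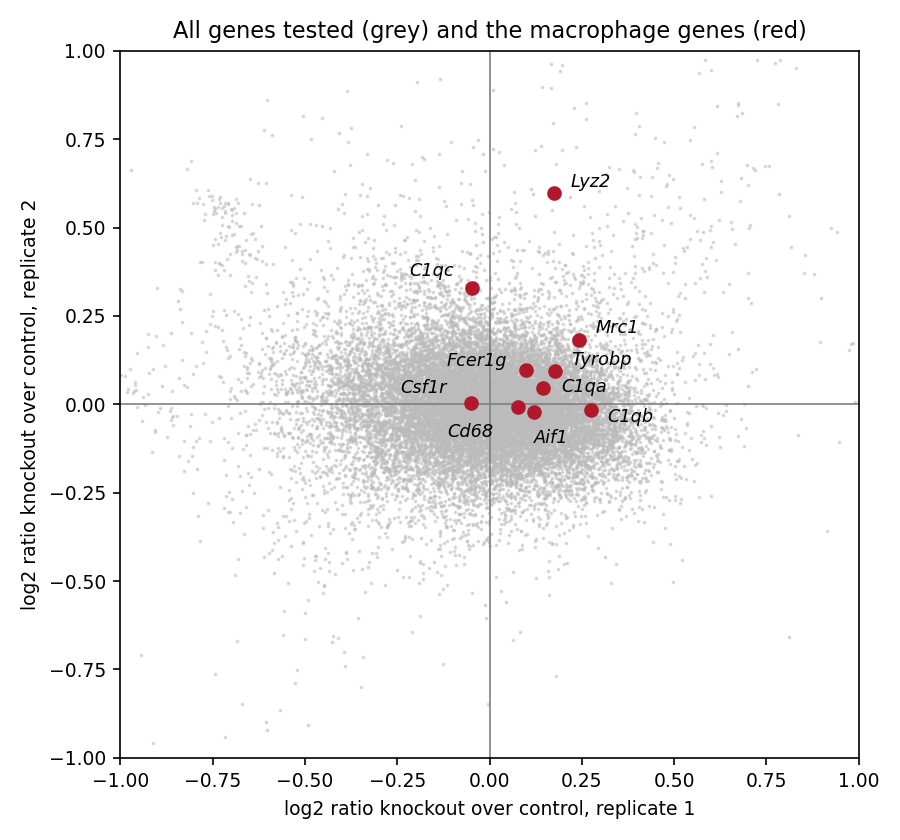
Log2 ratio of knockout over control on replicate 1 (horizontal) against replicate 2 (vertical) for all genes tested (grey; 119 lie outside the axes) and the 10 macrophage genes (red). Macrophage genes lie at upper right or close to the axes, with Lyz2 and C1qc set apart by replicate 2.

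Knockout 2 was the highest sample for both Lyz2 and C1qc. It lay at least 0.32 (log2) above each of the other three samples in these 2 of 10 members, and in 0.551% of all genes. Among the 100 further genes of macrophages and white blood cells, 7 had the same pattern, namely C3, C4b, Cfp, Itgb2, Lyz1, Ctss and Adgre1. The chemokine genes Ccl6 and Ccl9, which myeloid cells secrete, did too, with log2 ratios of 0.04 and 0.0256 on replicate 1 and 0.68 and 0.71 on replicate 2. So did Hdc of the mast cell list, with 0.33 on replicate 1 and 1.13 on replicate 2. No member stood that far above the others in knockout 1 (0.198% of all genes), control 1 (3.65%) or control 2 (0.198%). Of the 100 further genes, 4 stood that far above in control 1, namely Clec5a, Itgam, Gas6 and Cd300a, and 0 in knockout 1 or control 2. This count was made after the values had been seen, and has no test.

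Of the 10 genes, 9 had higher levels on replicate 2 in both genotypes. The same held for 23% of all genes, and Cd68 was the exception among the 10. Averaged over both samples of an array, the log2 level was at least 0.32 higher on replicate 2 for 4 of 10 members, against 0.694% of all genes. The log2 difference of replicate 2 over replicate 1 was 0.50 for Lyz2, 0.38 for C1qa, 0.37 for C1qc, 0.33 for Tyrobp, 0.28 for C1qb, 0.21 for Aif1, 0.18 for Fcer1g, 0.15 for Csf1r, 0.14 for Mrc1 and -0.027 for Cd68. The median of the 10 was 0.25, beside 0.11 for knockout over control, and was 0.18 in the knockout and 0.23 in the control samples.

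The scaling between arrays shifts the median of all genes, which was -0.13 without scaling and -0.69 with processed signals. Relative to that median, the members stood 0.25 higher on replicate 2 with scaling, 0.27 without and 0.26 with processed signals. The same difference between arrays had a median of 0.00079 in the genes shared by white blood cells, 0.0415 in the further tissue macrophage genes, 0.13 in complement genes, 0.0445 in the genes of ITAM signalling, -0.0116 in erythroid genes and -0.12 in endothelial genes. It was -0.0836 in the growth factor and receptor list, -0.0077 in the transcription factors, 0.0117 in phagocytic receptors and ligands and 0.0111 in lysosomal genes. In the lists described below it was 0.10 for mast cell genes, 0.0998 for chemokines and cytokines and 0.0861 for monocyte genes. Lymphocyte genes stood at 0.0344, class II presentation genes at 0.0028 and neutrophil genes at -0.0592. With 1 array each, array, sex and the litter or dissection of its samples cannot be told apart, and the difference has no test.

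**Figure D4:**
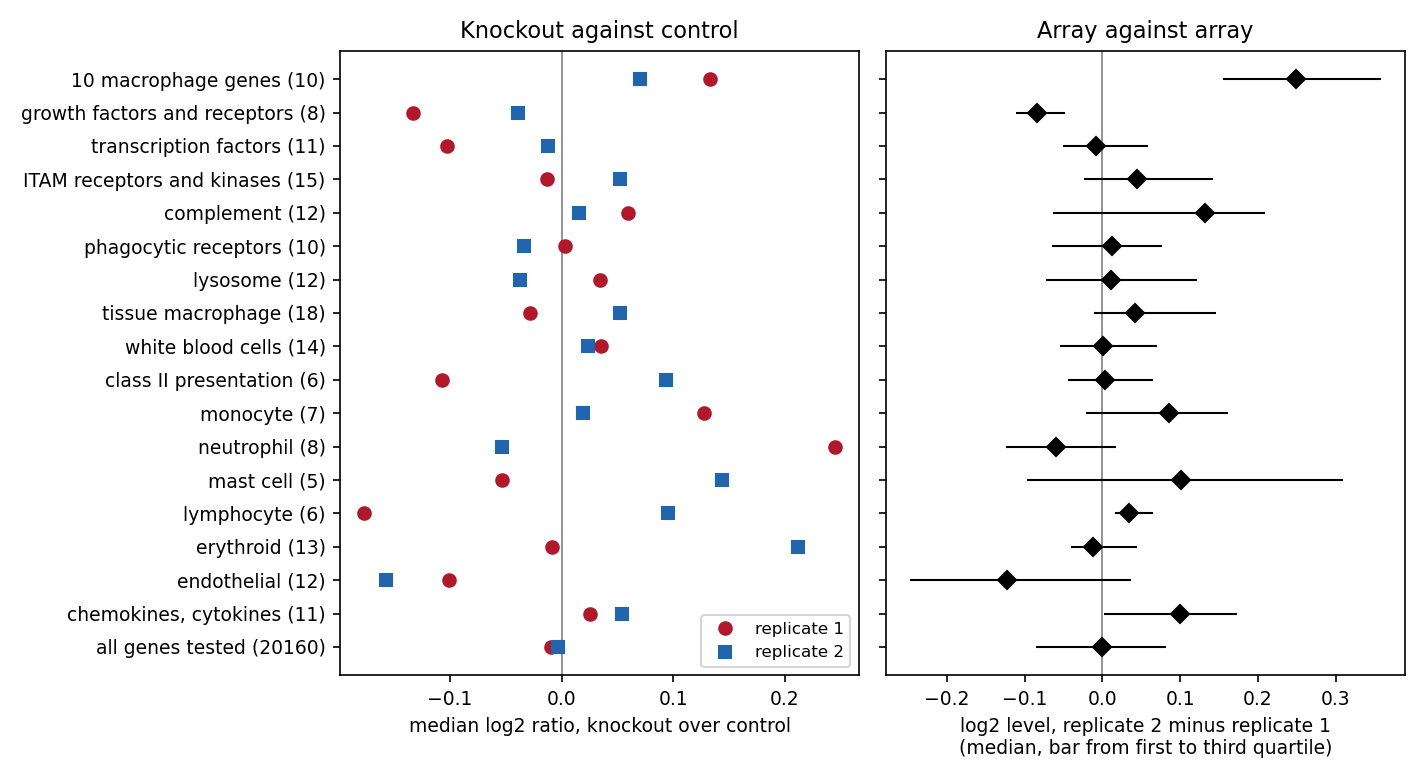
Left, median log2 ratio of knockout over control of each gene list on replicate 1 (circles) and replicate 2 (squares). Right, median difference in log2 level between the arrays, replicate 2 minus replicate 1, with bars from the first to the third quartile of the list's genes; the number of genes is in parentheses. The 10 macrophage genes have the highest median on the right, at 0.25.

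Markers of blood cells were measured beside these genes. Of 13 neutrophil genes 8 were tested and 7 were well above background in every sample, with Ltf and Ngp among those not kept. S100a9 and S100a8, which encode calprotectin, read 1.87 and 1.19 on replicate 1 and -0.18 and 0.27 on replicate 2, and Camp 0.62 and -0.09. In these 3 of the 8 genes knockout 1 stood at least 0.32 (log2) above each other sample, beside 0.198% of all genes. On replicate 1 and replicate 2, Ly6g read 0.28 and 0.11, Mpo 0.20 and -0.21, and Ctsg 0.21 and -0.45. Elane read -0.13 and 0.09, and Prtn3 -0.0362 and -0.0145, with knockout 1 the lowest sample for both. The list's median was 0.09 (0.24 on replicate 1 and -0.05 on replicate 2), and 0 of the 8 passed. The summed linear intensity of the list was 3387 in knockout 1, 2463 in knockout 2, 2207 in control 1 and 2486 in control 2. Bright probes weigh most in this sum. Fcer1g, Tyrobp and Lyz2 are expressed by neutrophils too, and the part of these cells in their values was not tested.

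Of 13 mast cell genes 5 were tested, and the defining Ms4a2, Fcer1a, Mcpt4 and Cma1 were not kept. Hdc, histidine decarboxylase, read 0.33 on replicate 1 and 1.13 on replicate 2 (limma adjusted p = 0.232), Cpa3 0.16 and 0.14, and Tpsb2 -0.47 and 0.20. Of 13 lymphocyte genes 6 were tested with a median of 0.0095 (-0.18 on replicate 1 and 0.0954 on replicate 2), with Cd79b at 0.17 ± 0.55, Cd4 at -0.09 ± 0.29 and Nkg7 at -0.08 ± 0.18, while Cd3g and Ms4a1 were not kept. The list of monocyte genes had a median of -0.0517 (0.13 on replicate 1 and 0.0196 on replicate 2), with 0 of 7 passing. Ly6c1 read 0.43 ± 0.32, Fn1 -0.32 ± 0.33 and Ms4a4c -0.14 ± 0.80, while Ly6c2 had no probe by that name. The Fn1 and Ms4a4c probes were bright, with mean log2 intensities of 16.08 and 14.99 in knockout. Which cells of the ureter gave these values was not tested, nor whether the Ms4a4c probe reads that gene alone.

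Class II antigen presentation genes had a median of -0.0296 (-0.11 on replicate 1 and 0.0938 on replicate 2), with 0 of 6 passing, H2-DMb1 at 0.28 ± 0.23, H2-Ab1 at 0.11 ± 0.31 and H2-DMa at -0.10 ± 0.11. Among myeloid chemokines and cytokines 0 of 11 passed, and besides Ccl6 and Ccl9 the growth factor gene Tgfb1 read -0.15 ± 0.23. Erythroid genes, which report red blood cells in the sample, had a median of 0.13 (-0.0086 on replicate 1 and 0.21 on replicate 2), with 0 of 13 passing. The chaperone gene Ahsp read 0.34 ± 0.02 and the adult globin gene Hbb-b1 0.33 ± 0.17, whereas the embryonic globin gene Hbb-bh1 read -0.29 ± 0.0058. The globin genes thus differed in sign, and the part of blood in the macrophage values was not tested.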

How the data were processed

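Total RNA of ureters (150 ng per labelling, per the labels) was measured on 2 Agilent arrays. Agilent Feature Extraction 10.7.3.1 read each spot, per the file headers, and gave the mean intensity and the local background per channel. Processed intensity and a log10 ratio stand beside them in the files as deposited; the log10 ratio was not used. The table that the authors deposited holds a score, namely signed folds by probe, whose scaling and centring are not given in the sources used here, and served only as an alternative.

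Here background was corrected by normexp (offset 50), arrays were normalised by loess, outlier-marked spots (3.52% and 3.66%) were left out, and each probe's 4 spots were averaged. Saturated spots numbered 0. A probe was kept if 2 or more of its spots passed the scanner's well-above-background call on both arrays in 1 genotype or both, which left 26571 of 39429. The brightest kept probe stood for a gene under its name in the file. Levels of single samples were taken after Aquantile scaling between arrays. Log2 ratios were oriented by the labelled dyes, positive where the labelled knockout was brighter.

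Ratios of the 2 arrays were tested against 0 with limma 3.58.1 in R 4.3.3, two-sided, with 1 residual and 9.10 prior degrees of freedom. The fit was also run on ratios simulated from its own variance prior, without dye or array effects. That check cannot show how the test behaves on these arrays. The members and lists were chosen with earlier results of these data known. Of each list the text names the 3 genes with the largest absolute mean and any that passed or reached 0.32 (log2) one way on both arrays; Csf1 and genes at or below the filter are named for their role. Some genes that this rule takes are not reported here. Members' sequences came from the array files, and exons and untranslated regions were not annotated here. Plots were drawn with matplotlib 3.10.9.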

Additional observations from a re-analysis of the deposited data

Results flagged for a closer look

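In 5 of the 10 genes the arrays, which carry different sex labels and opposite dyes, gave opposite signs of knockout over control, as they did in 10817 of the 20160 genes tested. None of these differences was tested, since there is 1 array of each kind. As replicate 2 minus replicate 1 of the log2 ratio, they were 0.0524 for Csf1r, -0.0868 for Cd68, -0.29 for C1qb, 0.38 for C1qc and -0.14 for Aif1. The median absolute difference between the arrays was 0.0921 over the 10 genes and 0.17 over all genes.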

How the results depend on the processing

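The count of members called was 0 in limma under every alternative with a test. These were median centring, processed signals, an offset of 0, no background correction, no filter, a stricter filter, the mean over probes, deposited values, a prior with trend, a robust prior, updated gene names and unpaired channels. At an unadjusted p under 0.05 it was 1 in most of them, 2 with no filter, and 0 with median centring and with unpaired channels. The members' median lay between 0.11 and 0.13 there, and between 0.07 and 0.13 with 1 array left out, where no test and no count of calls is possible. The lowest adjusted p of Lyz2 was 0.141. Csf1r turned to 0.0049 with the mean over probes. Over all genes, the 61 calls became 202 with processed signals, 202 with deposited values, 117 without background correction, 131 with an offset of 0, 156 with a prior with trend and 26 with unpaired channels. They became 0 with median centring and 0 with no filter, where 349 and 1101 genes had a p under 0.05 before adjustment; the cause was not tested. The difference in level between the arrays was examined after its values were seen, as were its alternatives. Only 2 arrays limit all values.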
